A study of Mus musculus with 104 samples.

Results

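The neurons described here are 30 single neurons of the mouse substantia nigra: 12 of the 38 neurons deposited as experiment, under record numbers 36 to 48, and 18 of the 66 deposited as control, under record numbers 38 to 55. They were chosen by record number alone, so no measured value entered the choice. The study concerns fluorescent reporters of Lewy pathology, the aggregates of α-synuclein found in Parkinson disease. Its design text describes neurons carrying α-Syn-6H-EGFP inclusions, a tagged α-synuclein fused to green fluorescent protein, that were drawn into patch pipettes from slices of the substantia nigra pars compacta and lysed with ERCC spike-in RNA. The sample labels give all 30 neurons as dopaminergic neurons of the substantia nigra and name the groups only experiment and control. They give no strain, age, genotype, treatment or animal for either group, and they do not say how the control neurons were picked or whether they carried the reporter. They also do not call the records 36 to 55 a batch. All animals were anesthetized with tribromoethanol and their slices were held in oxygenated artificial cerebrospinal fluid at the same temperatures, and cDNA was made with Smart-seq2, a protocol that amplifies full-length transcripts of 1 cell.

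Each library is 1 cell and no label names its animal, so each group counts as 1 sample, and no p-value is given for any difference. A gene's level is given as counts per 1000000 gene counts of a library (CPM), by the lowest, median and highest library of a group. Fold differences are ratios of pooled CPM (the summed counts of the experiment libraries over those of the control libraries, each scaled to the group total), with an exact binomial 95% interval. These intervals cover counting error only, since PCR copies carry no molecular identifier, and they are much narrower than the spread between neurons. A gene was called higher or lower when the ratio of pooled CPM and the ratio of the mean CPM per library were both past 2-fold. Where a wider call is named, both ratios had to be at least 25% above 1 for higher and at least 20% below 1 for lower. Numbers of neurons above or below every neuron of the other group are given for named genes and list sums only. The share of all expressed genes with such numbers was not computed, so they do not show how unusual a gene is.

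Libraries held 471891 to 1545615 gene counts in the experiment group and 578134 to 2577694 in the control group. The median number of genes with a count was 7754.5 in experiment libraries and 8039.5 in control libraries, and experiment library 43 had the fewest, 3949. ERCC reads made up a median of 0.543% in experiment libraries and 0.436% in control libraries. Control libraries 38 and 53 resembled each other unusually closely: their Spearman correlation over expressed genes was 0.851, against at most 0.677 in the other 152 control pairs and at most 0.71 in any other pair of the series. Their counts still differed beyond sampling noise, with a chi-square of 13.2 per degree of freedom, while every other control pair had at least 30.3. Both libraries were kept. Whether they come from the same cell was not tested, since the chi-square measures counting noise only. With the pair averaged into 1 library, the numbers of genes 2-fold higher and 2-fold lower were 654 and 1012, and with both left out 676 and 1039, against 643 and 1022 with both kept.

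The label dopaminergic neuron held in every library by its enzyme and transporter genes. The lowest values among the 30 neurons were 3439 CPM for Th, which encodes tyrosine hydroxylase, the rate-limiting enzyme of dopamine synthesis, and 974 CPM for Slc6a3, the dopamine transporter; experiment library 37 had both. Markers of endothelial and mural cells and of blood cells did not reach the expression limit (10 CPM pooled, with a count in at least 25% of the libraries of 1 group) for any gene. Glial markers did reach it, and their values stand beside the results below.

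Of 8832 expressed genes, 643 (7.28%) were 2-fold higher and 1022 (11.6%) 2-fold lower in experiment neurons. By the wider call, 2224 genes (25.2%) were higher and 2759 (31.2%) lower, and the median log2 ratio over all expressed genes was -0.06. The balance of the 2-fold calls depended on the scale: as differences of mean log2(CPM + 10), 338 genes were past 2-fold higher and 311 past 2-fold lower.

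The group of genes that stood highest in experiment neurons was the list of targets of ATF4 and CHOP. As background, ATF4 is a transcription factor whose translation increases when a stress kinase phosphorylates the initiation factor eIF2α, a route called the integrated stress response. It switches on genes for making and importing amino acids and for charging transfer RNAs, and together with its partner CHOP it can also switch on genes of growth arrest and cell death. Kinases of this route respond to unfolded protein in the endoplasmic reticulum, to lack of amino acids, to haem shortage and mitochondrial stress, and to viral RNA.

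ATF4 often binds DNA together with a C/EBP protein at a composite site, and the letters TGATGNAA, in which N is any base, were searched on both strands in RefSeq promoters of build GRCm38.p6, from 250 bases before to 50 bases after each gene's start. Promoters were found for 19 of the 21 expressed genes of the list. A match was present for 6 of these 19 genes (31.6%), against 2.72% of the 6762 expressed genes with a promoter and none of 56 expressed ribosomal protein genes. The genes were listed because they are known targets of ATF4 and CHOP, so a higher share than in other genes can follow from the list itself. The share therefore says nothing about these neurons. The match is a description of letters and not a measured binding site. The upstream stretches of 4 genes with a match are shown because these genes encode parts of the amino acid response described below; each is read 5′ to 3′ on the gene's strand, and capitals mark the match, which for Atf3 and Chac1 lies on the opposite strand (TTNCATCA).
Asns, chr6:7693210-7693269, minus strand: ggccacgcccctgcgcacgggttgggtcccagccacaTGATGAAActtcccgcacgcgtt
Atf3, chr1:191183410-191183469, minus strand: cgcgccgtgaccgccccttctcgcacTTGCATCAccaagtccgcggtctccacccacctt
Chac1, chr2:119351023-119351082, plus strand: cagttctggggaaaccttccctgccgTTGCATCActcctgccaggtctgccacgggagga
Pycr1, chr11:120643818-120643877, minus strand: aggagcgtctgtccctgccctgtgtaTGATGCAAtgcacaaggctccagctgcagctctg
Counted from the gene's start, the first base of the match lay at position -23 for Asns, -110 for Atf3, -193 for Chac1 and -103 for Pycr1. The other matches were at position 15 for Trib3 and -200 for Vldlr.

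Of the 28 genes on the ATF4 and CHOP list, 21 were expressed. By the wider call 20 of them were higher and none lower, and 19 were 2-fold higher, where 7.28% of all expressed genes were. Its median log2 ratio was 2.06, against -0.06 for all expressed genes. In 16 of the 21 genes, at least 9 of the 12 experiment libraries lay above the control median, which was so for 9.33% of all expressed genes. The exception to the direction was Vldlr, a lipoprotein receptor, with a ratio of 1.27 by pooled CPM and 0.941 by mean CPM.

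**Figure D1:**
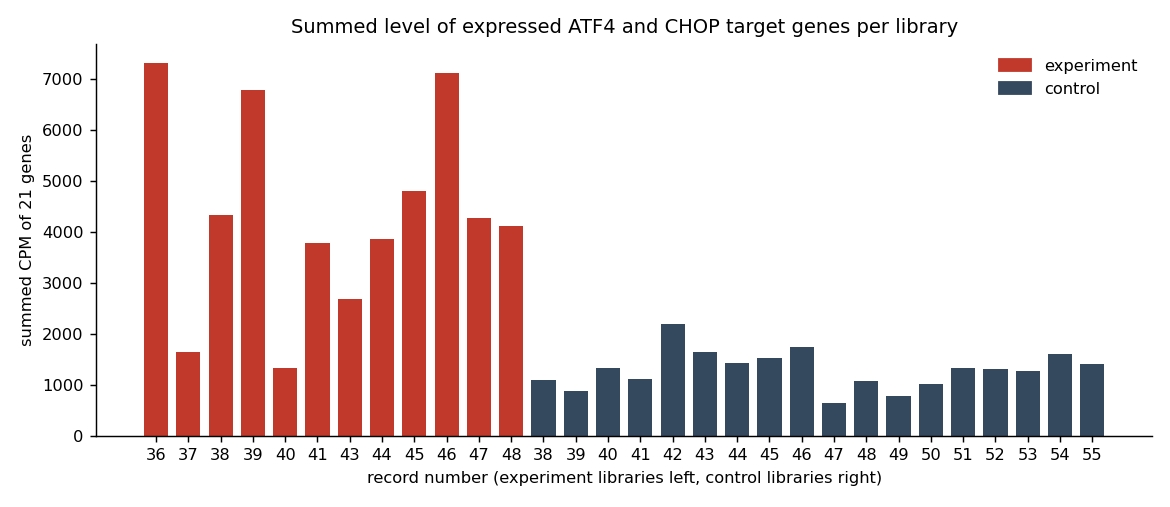
Summed CPM of the 21 expressed ATF4 and CHOP target genes in each library, with the 12 experiment libraries (red) on the left and the 18 control libraries (dark) on the right, by record number. The highest control library sums to 2193 CPM, and 10 of the 12 experiment libraries exceed it; experiment libraries 37 and 40 do not.

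Summed over these 21 genes, experiment libraries had 1340 CPM at the lowest, 4194 at the median and 7326 at the highest, and control libraries had 650 at the lowest, 1321 at the median and 2193 at the highest. Thus 10 of the 12 experiment neurons exceeded every control neuron. The other 2 experiment neurons were library 37 with 1637 CPM and library 40 with 1340 CPM, both inside the control range. Library 43, with 2681 CPM, exceeded the controls through 9 genes, the only ones of the 21 in which it had a count; the experiment median was 19 genes with a count and the control median 12.

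Enzymes of the serine and folate steps were higher. Psat1, which encodes phosphoserine aminotransferase of serine synthesis (chr19:15904678-15947337), had 0, 333 and 752 CPM in the lowest, median and highest experiment library, against 0, 0.739 and 141 CPM in control libraries. Its pooled ratio was 8.33 (95% interval 7.75 to 8.95). Of the experiment libraries 9 passed 100 CPM and libraries 37 and 40 were near or at 0, whereas 3 of the 18 control libraries passed 100 CPM. Phgdh, the first enzyme of the same route, had 0, 115 and 447 CPM in experiment libraries and 0, 0 and 96.7 CPM in control libraries, a ratio of 6.13 (5.54 to 6.79). Counts of Phgdh were found in 9 of 12 experiment neurons, 7 of them above every control, and in 4 of 18 control neurons. Psph, which completes serine synthesis, was 3.5-fold higher, with a median of 71.1 CPM in experiment libraries and 4.96 in control libraries.

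Shmt2, the mitochondrial enzyme that passes a carbon from serine to folate (chr10:127517123-127522444), had 3.32, 63.2 and 211 CPM in experiment libraries, against 0, 0 and 41.4 CPM in control libraries. The ratio was 13.7 (11.7 to 16.1), and all 12 experiment neurons lay above the control median, a position that 23 of the 8832 genes (0.26%) shared. Mthfd2, the next mitochondrial folate enzyme (chr6:83305691-83325908), had 29.1, 284 and 589 CPM in experiment libraries, against 0, 0 and 93.3 CPM in control libraries, a ratio of 8.33 (7.71 to 9.02). Here 10 of 12 experiment neurons were above the highest control, and 10 of 18 control neurons had no count. Proline synthesis, through Aldh18a1 and Pycr1, was also higher, with ratios of 4.18 and 4.96; a count of Pycr1 was present in 8 of 12 experiment and 5 of 18 control libraries. Asns, asparagine synthetase, had 139, 692 and 1588 CPM in experiment libraries and 17.3, 276 and 794 CPM in control libraries, a ratio of 2.26 (2.19 to 2.32). Every library had a count of Asns, and the 2 groups overlapped.

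**Figure D2:**
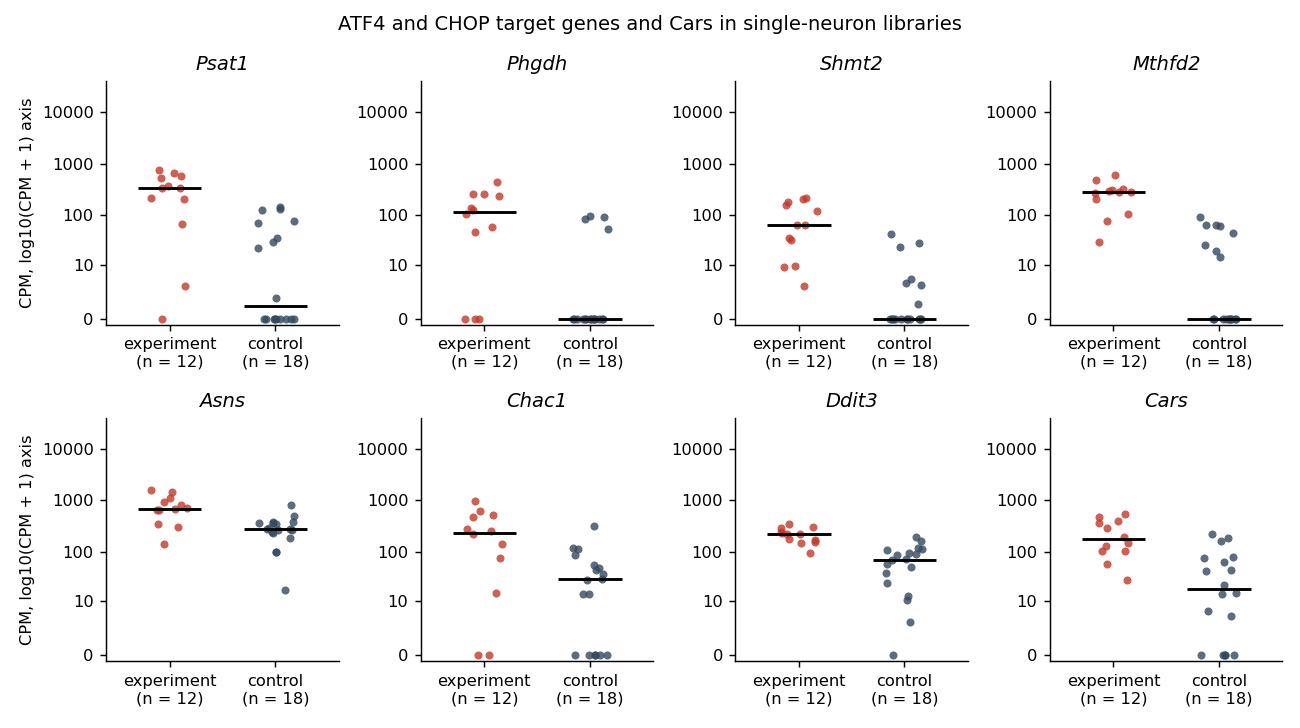
CPM per library (log10(CPM + 1) axis) of 7 ATF4 and CHOP target genes and the synthetase gene Cars, with 12 experiment libraries left and 18 control libraries right in each panel; each point is 1 neuron, points are spread sideways for visibility, and the bar is the group median. Phgdh, Shmt2 and Mthfd2 have a control median of 0 CPM, whereas Asns has counts in all libraries and overlapping groups.

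Several amino acid carriers were also higher. Slc7a5, the light chain of the large neutral amino acid transporter, had 0, 55.4 and 497 CPM in experiment libraries and 0, 6.83 and 126 CPM in control libraries, a ratio of 7.87 (7.08 to 8.76). Slc3a2, its heavy chain partner, had 158, 504 and 1098 CPM in experiment libraries and 0, 204 and 420 CPM in control libraries, and was 2.7-fold higher. The cationic amino acid transporters Slc7a1 and Slc7a3 had ratios of 4.65 and 1.43. Slc7a11, another amino acid carrier, did not share this direction. It had counts in 2 of 12 experiment and 5 of 18 control libraries, with its highest value in a control library.

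The regulators themselves were higher as well. Atf4 mRNA had 65.4, 243 and 816 CPM in experiment libraries, against 0, 95.9 and 269 CPM in control libraries, a ratio of 2.57 (2.45 to 2.7). Ddit3, which encodes CHOP (chr10:127290774-127296288), had 95.04, 223 and 344 CPM in experiment libraries, against 0, 69.99 and 196 CPM in control libraries. All 12 experiment neurons were above the control median for Ddit3, 7 of them above every control neuron, and the ratio was 3.09 (2.92 to 3.27). The annotation holds a 2nd gene model of the same symbol inside the Ddit3 interval, so counting may have divided reads between them. Atf3, a stress-induced factor, had a count in 7 experiment libraries, and its ratio was 2.36. Chac1, which degrades glutathione, had 0, 233 and 961 CPM in experiment libraries and 0, 28.7 and 318 CPM in control libraries, a ratio of 4.68 (4.41 to 4.96). Sesn2, a stress-induced brake on the growth kinase mTORC1, had 0, 103 and 734 CPM in experiment libraries and 0, 0 and 163 CPM in control libraries, a ratio of 12.4 (11.1 to 13.8). Trib3, a pseudokinase induced by ATF4 and CHOP, reached a similar ratio of 12.9 on fewer neurons, with counts in 4 of 12 experiment libraries and 3 of 18 control libraries. Ppp1r15a, whose product leads the phosphatase that reverses eIF2α phosphorylation, had a median of 71.5 CPM in experiment libraries and 21.3 CPM in control libraries.

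Another known ATF4 target outside the list, Eif4ebp1, an inhibitor of cap-dependent translation, was among the genes with the widest difference in presence. It had 0, 33.1 and 202 CPM in experiment libraries and 0, 0 and 17.3 CPM in control libraries, with a ratio of 38.9 (27.5 to 56.6). Hspa9, the main mitochondrial Hsp70 chaperone, had 54.8, 781 and 1630 CPM in experiment libraries and 20.97, 261 and 599 CPM in control libraries, a ratio of 3.06 (2.97 to 3.16). For Hspa9, 8 of 12 experiment neurons were above the highest control.

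Aminoacyl-tRNA synthetases, which attach amino acids to their transfer RNAs, were higher as a group. Of 20 genes, all expressed, 15 were higher and 2 lower by the wider call, where 25.2% and 31.2% of all expressed genes were. The 5 genes 2-fold higher were Cars, Gars, Mars, Iars and Tars, where 7.28% of all expressed genes were. The median log2 ratio was 0.72. Gars, the glycine enzyme, had 184, 535 and 1056 CPM in experiment libraries and 0, 147 and 470 CPM in control libraries, a ratio of 2.96 (2.86 to 3.08). Cars, the cysteine enzyme, had 27.7, 174 and 542 CPM in experiment libraries and 0, 18.3 and 219 CPM in control libraries, a ratio of 4.68 (4.39 to 5). All 12 experiment neurons were above the control median for both genes. Summed over the 20 genes, 9 of the 12 experiment libraries exceeded the highest control library at 3214 CPM, and the 3 that did not were libraries 37, 40 and 43. The 2 lower synthetases were Qars at a ratio of 0.389 and Vars at 0.779.

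Transcripts of the translation machinery and of the mitochondrial genome were also higher. Ribosomal protein genes were higher by the wider call in 62 of 77 and lower in none. Of all expressed genes, 25.2% were higher and 31.2% lower by that call. Of the 77, 9 were 2-fold higher, where 7.28% of all expressed genes were, and the median log2 ratio was 0.61. Rps23, of the small subunit, had 69.8, 144 and 303 CPM in experiment libraries, against 0, 67.9 and 118 CPM in control libraries, and all 12 experiment neurons lay above the control median. The summed ribosomal level was highest in experiment libraries 47 and 43, at 30579 and 29144 CPM, against at most 14625 CPM in control libraries. The ribosomal median was 0.43 without library 43 and control libraries 44 and 46, the 3 libraries least like the others, and it was 0.28 in the first run of records (experiment 36 to 40 with control 38 to 41) and 0.82 in the second (experiment 41 to 48 with control 42 to 55). Of 10 expressed genes encoded by the mitochondrial genome, 8 were higher and none lower by the wider call, against the same shares. Their median was 0.60, which was 1.59 in the first run of records and 0.41 in the second. The mitochondrial share of counts had a median of 5.29% in experiment libraries and 3.97% in control libraries. Nuclear-encoded respiratory chain genes differed less, with 18 of 85 higher and 1 lower by that call, where 25.2% and 31.2% of all expressed genes were. Their median was 0.18.

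Genes of the endoplasmic reticulum's own unfolded protein response did not share the direction of the ATF4 list. Of 20 expressed chaperone and degradation genes, 2 were higher and 9 lower by that call, and the median log2 ratio was -0.35. Hspa5, which encodes BiP, the main chaperone of this compartment, had a median of 462 CPM in experiment libraries and 563 CPM in control libraries, a ratio of 0.834 (0.812 to 0.856). Canx, the membrane chaperone calnexin, had 0, 231 and 679 CPM in experiment libraries and 237, 431 and 1091 CPM in control libraries, a ratio of 0.546. Herpud1, a degradation factor of the same compartment, was one of the 2 higher genes, with 0, 322 and 749 CPM in experiment libraries and 70.4, 173 and 367 CPM in control libraries, a ratio of 1.81.

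**Figure D3:**
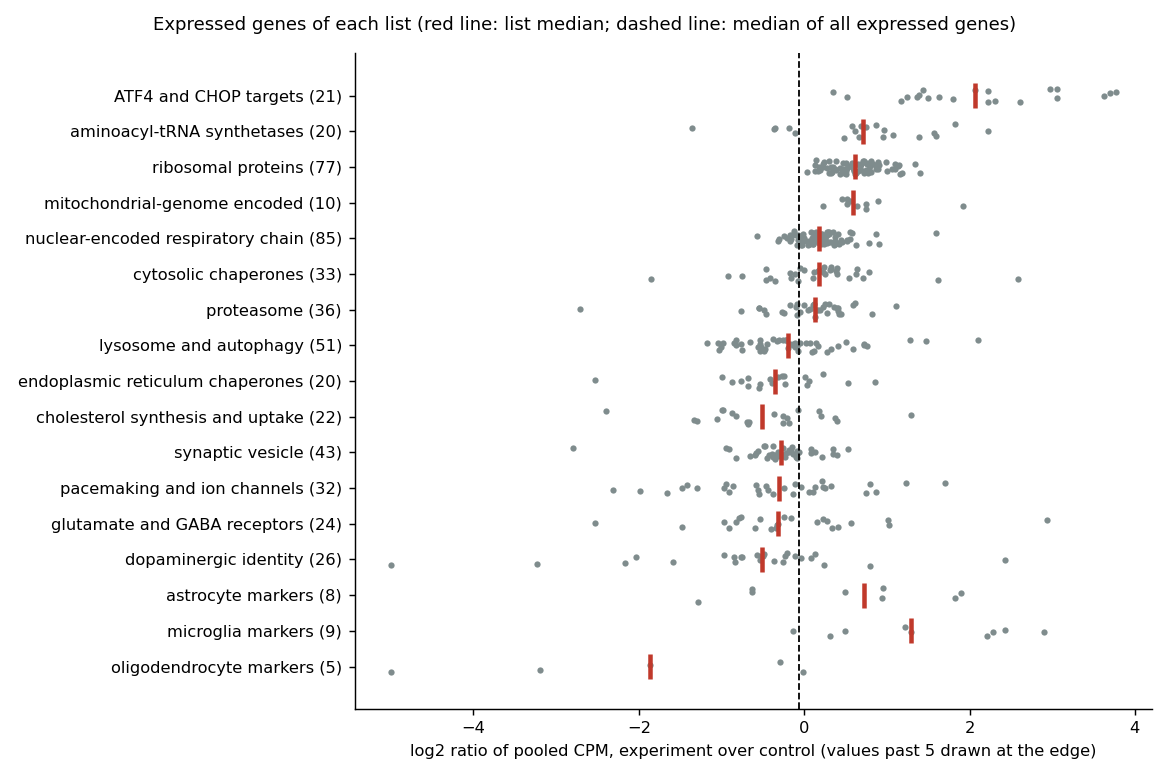
Log2 ratio of pooled CPM, experiment over control, of each expressed gene (grey points, spread vertically for visibility) in 17 gene lists, with the number of genes in brackets. Red lines are list medians, which run from 2.06 for ATF4 and CHOP targets to -1.87 for oligodendrocyte markers, and the dashed line is the median of all expressed genes at -0.06.

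Cholesterol synthesis and uptake genes were lower in 11 of 22 and higher in 3 by the wider call. Of all expressed genes, 31.2% were lower and 25.2% higher by that call. The list had a median log2 ratio of -0.51, which was -0.96 in the first run of records and -0.34 in the second. Sqle, squalene epoxidase, had 0, 122 and 373 CPM in experiment libraries and 39.2, 314 and 600 CPM in control libraries, a ratio of 0.408. In the sum over the list, 7 of 12 experiment neurons lay below every control neuron. Mvk, mevalonate kinase, had a ratio of 2.45 that came down to 1.1 once the highest library of each group was left out.

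Dopaminergic identity genes were lower on the whole, while the group medians of Ddc and Slc6a3 lay close together. Of 26 expressed genes, 14 were lower and 2 higher by the wider call, 5 were 2-fold lower and 1 2-fold higher, and the median log2 ratio was -0.51. Th had 3439, 6306 and 8299 CPM in experiment libraries, against 4073, 9741 and 27011 CPM in control libraries. All 12 experiment neurons were below the control median, a position that 56 of the 8832 genes (0.634%) shared, and 11 of 18 control neurons were above the highest experiment neuron. The ratio was 0.559 (0.555 to 0.564), and 0.636 with the highest library of each group left out. Gch1, which makes the tetrahydrobiopterin that tyrosine hydroxylase needs, had 0, 148 and 750 CPM in experiment libraries and 99.2, 489 and 1089 CPM in control libraries, a ratio of 0.333 (0.319 to 0.347). Ddc, the next enzyme of dopamine synthesis, had medians of 3188 CPM in experiment libraries and 3253 CPM in control libraries. For Slc6a3, the medians were 4158 CPM in experiment libraries and 4148 CPM in control libraries, and the ratio was 0.836. Slc18a2, the vesicular monoamine transporter, had a ratio of 0.714, with 9 of 12 experiment neurons below the control median.

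Dlk1, an imprinted gene of the Notch ligand family, had 230, 546 and 854 CPM in experiment libraries and 442, 916 and 3143 CPM in control libraries. Every experiment neuron was below the control median, and the ratio was 0.556. Among transcription factors, Foxa2, which helps specify and maintain midbrain dopaminergic neurons, was detected in 1 of 12 experiment neurons and in 14 of 18 control neurons. All experiment libraries together held 2 counts and the control libraries 1583, a ratio of 0.00238 (0.000288 to 0.0086) from these counts as they stand. Lmx1b, another such factor, had a ratio of 0.244 over all libraries, but experiment records 36 to 40 against control records 38 to 41 gave a log2 ratio of 0.25. En1, a survival factor of these neurons, was in contrast higher, with 158, 292 and 551 CPM in experiment libraries and 36.7, 177 and 461 CPM in control libraries, a ratio of 1.74. Gfra1, the receptor for the growth factor GDNF, had a ratio of 0.107; its co-receptor Ret had 0.863.

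**Figure D4:**
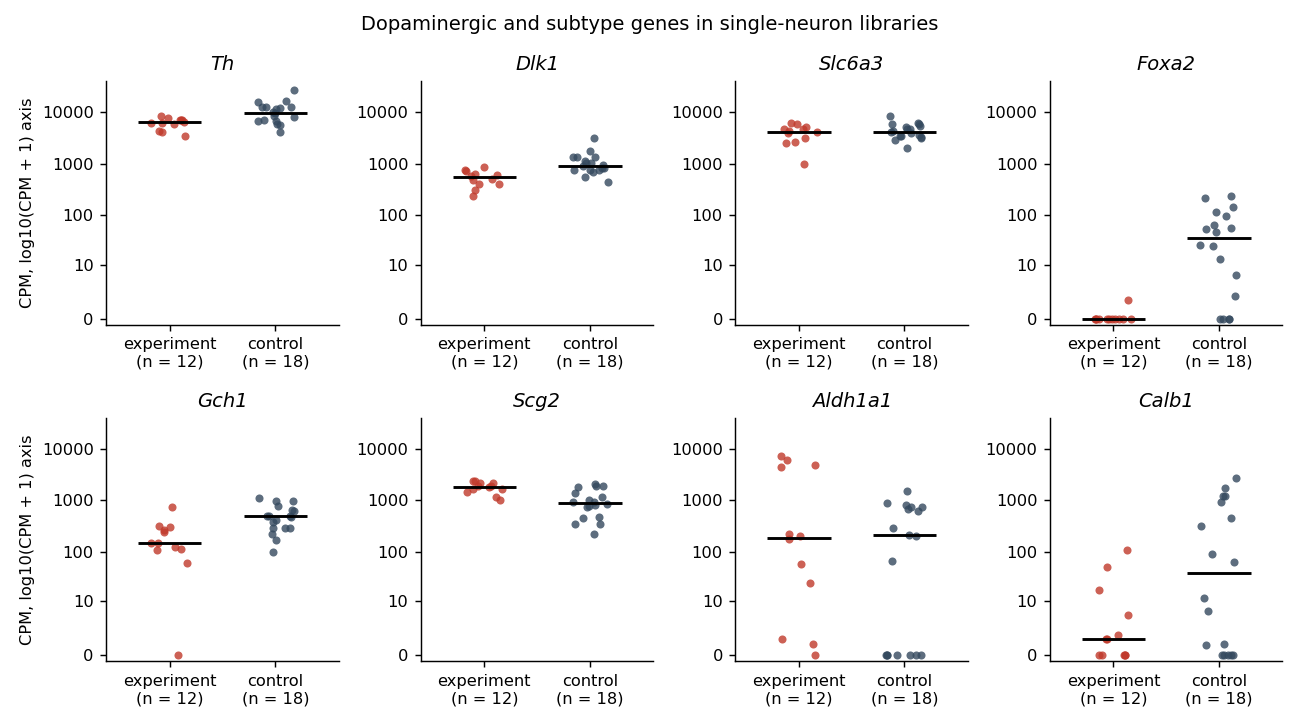
CPM per library (log10(CPM + 1) axis) of dopaminergic, secretory and subtype genes, with 12 experiment libraries left and 18 control libraries right in each panel; each point is 1 neuron, points are spread sideways for visibility, and the bar is the group median. Th and Dlk1 are displaced downward in experiment libraries, Foxa2 is at 0 in 11 of 12 of them, and Aldh1a1 has neurons with high and with low or no counts in each group, whereas Calb1 is at most 108 CPM in experiment libraries.

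Markers of dopaminergic subtypes were unevenly spread over the groups. Aldh1a1, a retinoic acid enzyme that marks the ventral tier of the nigra, had 0, 189 and 7302 CPM in experiment libraries and 0, 211 and 1491 CPM in control libraries. The medians were close, and the pooled ratio of 5.4 came from 4 experiment neurons, libraries 40, 43, 44 and 47, each above the highest control. Anxa1, a marker of a ventral subset, had counts in 3 experiment libraries and reached 608 CPM there, against at most 50.7 CPM in control libraries. Calb1, a calcium buffer of the dorsal tier and the ventral tegmental area, had 0, 1.04 and 108 CPM in experiment libraries and 0, 37.9 and 2743 CPM in control libraries, a ratio of 0.031 (0.0274 to 0.035). Of the control neurons 7 were above the experiment maximum. Slc17a6, the vesicular glutamate transporter of glutamate co-releasing dopaminergic neurons, had counts in 4 of 12 experiment and 9 of 18 control libraries, a ratio of 0.29. Sox6, a transcription factor of the ventral tier, had medians of 0.476 CPM in experiment libraries and 18.3 CPM in control libraries but a ratio of 1.13, and Otx2, a factor of ventral tegmental neurons, had no count in experiment libraries and 1 count in all control libraries together. Of 6 expressed dorsal tier and ventral tegmental genes, 4 were 2-fold lower, where 11.6% of all expressed genes were. Their median log2 ratio was -1.81. Whether the groups differ in the subtypes sampled or in the level of these genes within a subtype cannot be told apart with these libraries.

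Secretory, synaptic and channel genes included several for which all 12 experiment neurons lay on one side of the control median. Scg2, a granin of dense-core vesicles, had 1011, 1831 and 2359 CPM in experiment libraries and 224, 871 and 2036 CPM in control libraries; all 12 experiment neurons were above the control median, and the ratio was 1.88 (1.84 to 1.91). Ptprn, a membrane protein of the same vesicles, went the other way, with 52.1, 298 and 454 CPM in experiment libraries and 215, 570 and 1182 CPM in control libraries, a ratio of 0.492. Rab3c, a small GTPase of synaptic vesicles, had 133, 550 and 964 CPM in experiment libraries and 321, 1111 and 1733 CPM in control libraries, a ratio of 0.534. Both Ptprn and Rab3c were below the control median in all 12 experiment neurons. By the wider call, synaptic vesicle genes were lower in 16 of 43 and higher in 1, where 31.2% and 25.2% of all expressed genes were. Their median log2 ratio was -0.28, and 1 gene was 2-fold lower, where 11.6% of all expressed genes were. Pacemaking and ion channels, a list of 32 genes, had 15 lower and 5 higher by the wider call, against the same shares. Of the 32, 6 were 2-fold lower and 1 2-fold higher, where 11.6% and 7.28% of all expressed genes were. The channel median was -0.31, which was -0.03 in the first run of records and -0.63 in the second. Scn2b, a sodium channel β subunit, had 99.0, 245 and 712 CPM in experiment libraries and 188, 565 and 2369 CPM in control libraries, a ratio of 0.359. Gabbr1, a subunit of the GABA-B receptor, was below the control median in all 12 experiment neurons, with a ratio of 0.51.

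Expressed genes past 2-fold were ranked by size of difference if at least 9 of 12 experiment neurons lay on that side of the control median. They also needed a median of at least 10 CPM in the higher group and a ratio past 1.5-fold without the highest library of each group. Gm, Rik and LOC gene models, pseudogenes, and ribosomal protein, mitochondrial-genome, haemoglobin and sex-linked genes were left out. In this ranking Clic4 led the higher ones. Clic4, a chloride intracellular channel protein, had 0, 45.9 and 300 CPM in experiment libraries and 0, 0 and 28.6 CPM in control libraries, a ratio of 26.7 (21.5 to 33.7). Shmt2, Gtf2ird2, Mthfd2, Psat1, Phf10, Phgdh, Slc7a5, Cnppd1, Wscd1, Uap1l1 and Id2 followed, so 5 of these 12 genes belong to the ATF4 and CHOP list. On the lower side, the first 12 were Foxa2, Scube1, Gpx3, Calb1, Vav3, Ppp4r4, Necab1, Dpagt1, Zfp668, Sema4a, Pcdh1 and Fuca1. Scube1, a secreted and membrane-bound epidermal growth factor repeat protein, had no count in any experiment library and a median of 30.6 CPM in control libraries, which makes it at least 182-fold lower when 3 counts are taken as the limit for the experiment group. Gpx3, a secreted glutathione peroxidase, had at most 4.65 CPM in experiment libraries and a median of 23.7 CPM in control libraries. Gpx1, another glutathione peroxidase, had 0, 98.9 and 339 CPM in experiment libraries and 50.8, 223 and 493 CPM in control libraries, a ratio of 0.412. Of 23 expressed glutathione and antioxidant genes 3 were 2-fold lower and none 2-fold higher, where 11.6% and 7.28% of all expressed genes were. By the wider call 9 were lower and 2 higher, where 31.2% and 25.2% of all expressed genes were. The median of these genes was -0.14 on the log2 scale. Fuca1, a lysosomal fucosidase, had a median of 0 CPM in experiment libraries and 86.7 CPM in control libraries.

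Glial transcripts were present in both groups. The summed microglia markers had 26.4, 379 and 3875 CPM in experiment libraries, with the highest in library 46, and 35.5, 176 and 2506 CPM in control libraries, with the highest in library 44. Of 9 expressed microglia markers 6 were higher and none lower by the wider call, where 25.2% and 31.2% of all expressed genes were. Their median log2 ratio was 1.29 by pooled CPM and 0.49 by mean CPM. All 13 markers had counts in at least 1 library of each group. In the first run of records the microglia median was 4.43, and in the second it was 1.54. The summed astrocyte markers had 190, 588 and 2810 CPM in experiment libraries and 125, 302 and 2309 CPM in control libraries. Library 37 was highest among experiment and library 45 among control libraries. Of 8 expressed astrocyte markers 5 were higher and 2 lower by the wider call, against the same shares of 25.2% and 31.2%. The astrocyte median of 0.72 over all libraries stood at 4.75 in the first run of records and at -1.34 in the second, so its direction turned. For oligodendrocyte markers, the sums were 0, 240 and 1243 CPM in experiment libraries and 38.7, 278 and 5731 CPM in control libraries. Of 5 expressed genes 3 were 2-fold lower, where 11.6% of all expressed genes were. Mag, Mal, Opalin, Ermn, Ugt8a and Sox10 were at 0 in all experiment libraries. With the 25% of libraries highest in glial markers left out, 7 experiment and 15 control libraries remained, and the ATF4 and CHOP list then had a median log2 ratio of 1.92 with 19 of 21 genes 2-fold higher, while the dopaminergic list had -0.44.

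The record numbers divide the neurons into 2 runs, experiment 36 to 40 with control 38 to 41 and experiment 41 to 48 with control 42 to 55, which the labels do not name as batches. In the first run, of 5 experiment and 4 control libraries, the ATF4 and CHOP median was 2.36 with 17 of 21 genes 2-fold higher. The second run held 7 experiment and 14 control libraries, and there the median was 1.91 with 18 of 21. The dopaminergic median was -0.53 in the first run and -0.59 in the second.

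Side by side with the rest of the series, for which no test is given, the ATF4 and CHOP list had a median log2 ratio of 2.06 here, 1.85 in the later records of 5 experiment and 17 control libraries, and 0.42 in the earlier records of 21 experiment and 31 control libraries. The number of its 21 genes past 2-fold higher was 19 here, 13 in the later records, where 13% of the same 8832 genes were, and 5 in the earlier records, where 3.51% were. Individual genes varied between sets: the ratio of Psat1 was 8.33 here, 14.2 in the later and 2.6 in the earlier records, while Sesn2 was at 12.4 here, 0.603 in the later and 0.303 in the earlier records. Synthetases had medians of 0.72 here, 0.06 in the later and 0.15 in the earlier records. The dopaminergic list stood at -0.51 here, -1.04 in the later and -0.19 in the earlier records, and Th at ratios of 0.559 here, 0.478 in the later and 0.609 in the earlier records. Foxa2, nearly absent from experiment neurons here, had ratios of 0.496 in the later and 1.17 in the earlier records.

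**Figure D5:**
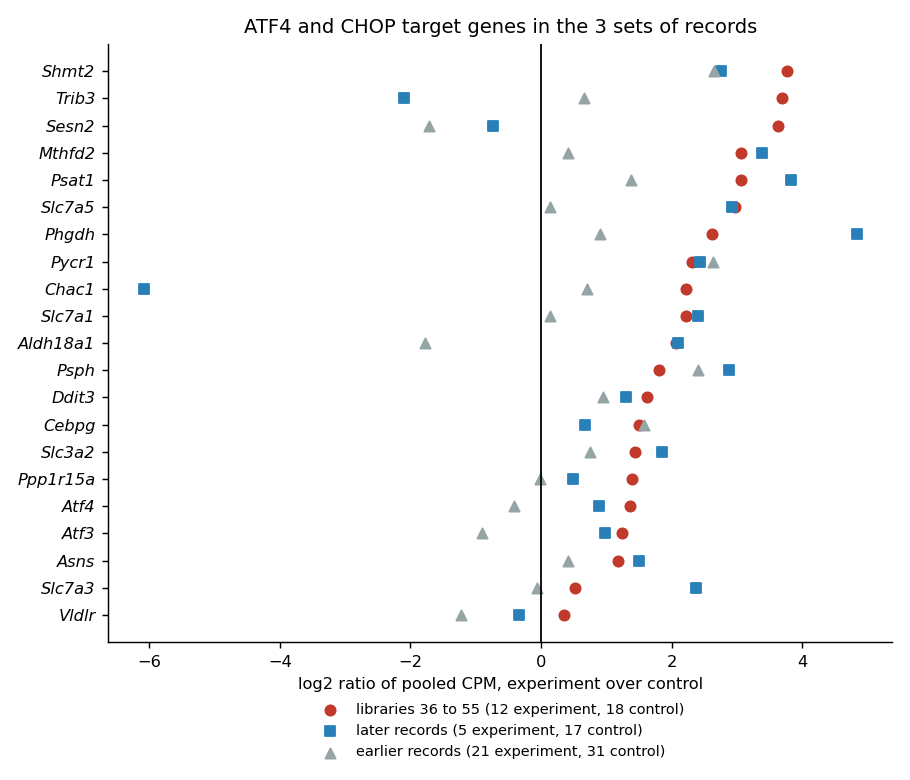
Log2 ratio of pooled CPM, experiment over control, of the 21 expressed ATF4 and CHOP target genes in the 30 libraries described here (red circles, 12 experiment and 18 control), the later records (blue squares, 5 and 17) and the earlier records (grey triangles, 21 and 31). All 21 red circles lie right of 0, with Vldlr lowest, while Trib3, Sesn2, Chac1 and Vldlr lie left of 0 in the later records.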

How the data were processed

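Single neurons were collected by patch pipette and converted to cDNA with Smart-seq2, with sequencing libraries from a HyperPlus kit, as the labels' protocols record. The submitters' processing notes name STAR 2.5.3a, featureCounts 1.5.3 and build mm10, with no settings. The authors deposited 1 table of raw counts per gene and library (45808 gene rows, 92 ERCC rows). No source used here states whether strand was used in counting.

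Totals and CPM were computed from gene rows alone. For calls and rankings a group sum under 3 counts was raised to 3 before a ratio was formed; the ratio printed for Foxa2 uses the counts as they stand. No test was run, since each group counts as 1 sample. Named genes were the first 12 broad and 6 sparse genes each way, 4 genes a list and 13 named whatever their values, of which 1 is not reported here; other members of the ATF4, synthetase, dopaminergic, cholesterol and chaperone lists (among them Atf4, Asns, Chac1, Pycr1, Slc3a2, Psph, Hspa5 and En1) were added after their values were seen. Members and lists were chosen with earlier results of these data known. Thinning to 400000 counts per library set the sparse ranking. Alternatives covered scale, scaling (edgeR 4.0.16 TMM, ERCC counts), filters and left-out libraries. The calls were checked on simulated counts. Gene positions are from GENCODE M21 on GRCm38. Software was Python 3.11.15, numpy 2.4.6, pandas 2.3.3, scipy 1.17.1 and R 4.3.3.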

Additional observations from a re-analysis of the deposited data

How the results depend on the processing

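The ATF4 and CHOP median (main value 2.06) and the dopaminergic identity median (main value -0.51) kept their direction under all 15 alternatives, with ranges of 1.58 to 2.52 and -0.60 to -0.26. No library had under 400000 counts, so that alternative changed nothing. The ERCC alternative could not change these medians either, because its ratios were taken relative to the shift of all genes, which returns the main medians. Leaving out libraries 43, 44 and 46 and dividing the records into 2 runs were chosen after seeing the data. The counts of genes 2-fold higher (643) and of genes 2-fold lower (1022) moved by over 1.5 times under some: 1214 higher with mean log2(CPM + 1), 338 higher and 311 lower with mean log2(CPM + 10), 427 higher with ERCC scaling, 126 higher and 210 lower with a minimum of 50 CPM, 1726 higher and 2805 lower with a minimum of 1 CPM, 1599 lower with each gene's highest library of each group left out, 1402 higher in the first run of records and 1696 lower in the second. The filters change how many genes are counted and the runs how many libraries; for the others the cause was not tested. ERCC scaling put the median of all expressed genes at -0.33, and calls and list medians under it were taken relative to that shift. For list medians, sign changes were counted only where the main median lay past the limits of the wider call. Sign changes of smaller main medians were not counted. Of 463 alternative values of list medians, 5 changed sign under this rule. In the second run these were astrocyte markers (-1.34) and immediate early genes (-0.018). In the first run they were oligodendrocyte (0.25) and oligodendrocyte precursor markers (1.40). Without the highest library it was axon injury genes (-0.039). For single genes, sign changes were counted only among named genes called 2-fold in the main setting. They were Lmx1b in the first run (0.25) and Mvk with mean log2(CPM + 1) (-0.97) and with mean log2(CPM + 10) (-0.062). Genes under 2-fold also changed sign: in the ATF4 and CHOP list, 20 of 21 genes lay above 0 with both log2 scales and in the first run, against 21 in the main setting. No paired analysis was possible because record numbers name neurons and pair none of them, and no test was run. Depth of 471891 counts or more per library limits genes near 10 CPM to a few counts a neuron.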

Other observations

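Genes of neuronal activity, inhibitory transmission and cell death are given here as values, with no test. Of 18 expressed immediate early and activity genes, 8 were higher and 4 lower by the wider call. Of all expressed genes, 25.2% were higher and 31.2% lower by that call. The list had a median log2 ratio of 0.35. This median was 1.43 in the first run of records, experiment 36 to 40 with control 38 to 41, and -0.018 in the second. Fos, an early marker of neuronal activity, had 432, 1022 and 3218 CPM in the lowest, median and highest experiment library and 0.902, 611 and 1594 CPM in control libraries, a ratio of 1.61 with 10 of 12 experiment neurons above the control median. Nr4a1, a nuclear receptor of the same class, had a median of 70.97 CPM in experiment libraries and 1.37 CPM in control libraries, and Jun, a transcription factor of the stress and axon injury response, had 154 CPM in experiment libraries and 37.3 CPM in control libraries. Gad1 and Gad2, the enzymes that make the inhibitory transmitter GABA, had ratios of 7.54 and 6.36. Their medians were 24.7 and 5.46 CPM in experiment libraries and 1.17 and 0.649 CPM in control libraries. Experiment libraries 37, 38 and 41 were highest for Gad1, at 528, 369 and 327 CPM, and only these 3 exceeded every control. For Gad2, 4 experiment neurons did. Out of 12 experiment neurons, 8 had a Gad1 count and 8 a Gad2 count. Out of 18 control neurons, 11 had a Gad1 count and 10 a Gad2 count. In a sum over GABAergic markers, 3 experiment neurons lay above every control neuron and 4 lay below. Of 14 expressed p53 and apoptosis genes, 4 were higher and 2 lower by the wider call, where 25.2% and 31.2% of all expressed genes were. Past 2-fold, 2 of the 14 were higher and 1 lower, where 7.28% and 11.6% of all expressed genes were. The list median was 0.14 on the log2 scale. Bax and Bbc3, which promote apoptosis, had ratios of 2.66 and 2.12, and their medians were 30.6 and 7.07 CPM in experiment libraries and 17.5 and 0 CPM in control libraries.

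Protein degradation lists moved little as wholes but held single genes with wide differences. By the wider call, proteasome genes were higher in 8 of 36 and lower in 4, where 25.2% and 31.2% of all expressed genes were. Their median log2 ratio was 0.13. Psme4, a proteasome activator, had 0, 0.684 and 26.2 CPM in experiment libraries and 0, 30.03 and 82.7 CPM in control libraries, with every experiment neuron below the control median. Lysosome and autophagy genes were lower in 16 of 51 and higher in 8 by the wider call, against the same shares of 31.2% and 25.2%. Of the 51, 1 was 2-fold lower and 3 were 2-fold higher, where 11.6% and 7.28% of all expressed genes were, and the median was -0.19. Lipa, the lysosomal acid lipase, and Npc1, which exports cholesterol from lysosomes, were on the higher side with ratios of 4.29 and 2.78. Among 25 expressed genes linked to Parkinson disease, 8 were lower and 3 higher by the wider call, where 31.2% and 25.2% of all expressed genes were, and 1 was 2-fold lower (median log2 ratio -0.18), and Atp13a2, a lysosomal transporter, had a median of 131 CPM in experiment libraries and 218 CPM in control libraries. Slc2a1, a glucose transporter, had a ratio of 4.4 in a glycolysis list whose median was 0.02.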
